A study of Danio rerio with 39 samples.

Results

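Embryonic and other hemoglobin genes of zebrafish were followed through the first days of development, with and without dioxin. The members were all non-control probes whose gene name on the array was *hbae1*, *hbae3*, *hbbe1*, *hbbe2*, *hbaa1*, *ba1* or *zgc:92880*: 7 probes, 1 for each name, of 21495 probes on the array. Among them, *hbae1* and *hbae3* encode embryonic α-globins, *hbbe1* and *hbbe2* embryonic β-globins, *hbaa1* an adult α-globin and *ba1* an adult β-globin. In the RefSeq annotation (GRCz12tu assembly), *hbae1* is now named *hbae1.1*, *hbbe1* is *hbbe1.1*, *ba1* is *hbba1* and *zgc:92880* is *hbba2*, a further β-globin. Of the 7 genes, 6 lie on chromosome 3 in a stretch of 12 protein-coding genes, 11 of which carry globin names, and *hbbe2* lies on chromosome 12 next to *hbae4*, *hbbe3* and *hbae5*. Both *hbae1* and *hbbe1* have closely named copies in that stretch (*hbae1.2*, *hbae1.3*, *hbbe1.2* and *hbbe1.3*), and how much each probe reads of other copies was not tested, so each value below belongs to a probe and possibly to more than 1 gene.

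Hemoglobin carries oxygen in red blood cells as a tetramer of α- and β-globin chains, each holding a heme group. Zebrafish embryos make a first, primitive wave of red cells that use embryonic globins, and a later, definitive wave turns to adult globins, so that globin messages are among the most abundant of a young embryo and change with age. The globin genes of fish lie with α and β genes intermingled in a major and a minor cluster on different chromosomes. TCDD (dioxin) is a ligand of the aryl hydrocarbon receptor that impairs the heart and the circulation of fish embryos.

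Embryos of the AB* strain were bathed for 1 h, from 4 to 5 h after fertilization, in TCDD (1 ng/mL) or in its carrier DMSO, and pools of whole embryos were collected on days 1, 2, 3, 4 and 5. The 39 arrays comprised 19 of TCDD embryos (4 on days 1, 3, 4 and 5, and 3 on day 2, where replicate 1 was not analysed here) and 20 of DMSO embryos (4 on each day), and replicate numbers 1 to 4 denote 4 independent experiments. On each array the embryo RNA, labeled with Cy5, was hybridized together with a common reference, RNA of the zebrafish embryonic fibroblast line Zf4, labeled with Cy3. Unless stated otherwise, values are either the log2 ratio of embryo to reference signal, or the embryo signal alone (log2 of the dye-normalized signal relative to the 75th percentile of its array). As whole embryos were pooled, fewer red cells and less globin RNA per cell cannot be told apart. Between 16329 and 18624 embryo spots per array were well above background. *cyp1a*, the textbook target of the receptor, was 19.9- to 97.7-fold higher in TCDD than in DMSO embryos over the 5 days (limma, adjusted p of 1.45e-06 or lower on each day), and its ratio did not overlap between the treatments on any day. 3 scan batches of 4, 24 and 11 arrays were present.

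The probes fell into bright and dim ones. As net signal (mean spot intensity minus local background), *hbae1* gave 6402 at its lowest, 23380 at the median and 65253 at its highest over the 39 arrays. *hbae3* gave 8415, 17754 and 65250, and *hbbe2* gave 798, 6178 and 13908. Their reference signals were only 0.675%, 1.22% and 0.968% of the embryo signal at the median, so each of these ratios is a large number over a very small one. *hbbe1* was dim, with 86.1, 165 and 551 and a reference at 43.8% of the embryo signal, though it was well above background in both channels on all 39 arrays. *ba1* (24.2, 50.7 and 125) gave embryo spots well above background on 38 arrays and *zgc:92880* (18.7, 46.9 and 89.8) on 29. For these adult genes the net reference signal, which is not dye-normalized, exceeded the net embryo signal at the median. The dye-normalized log2 ratio averaged 0.44 for *ba1* and -0.14 for *zgc:92880*, so the net signals do not rank embryo and reference RNA. *hbaa1* was not well above background in any embryo sample, and is given no change here although it was kept among the 7 probes tested. The signals of different probes depend on probe and labeling and were not compared. At the other end of the scale, *hbae1* was saturated in 5 embryo samples (all 3 TCDD arrays and 2 of the 4 DMSO arrays of day 2) and *hbae3* in 1 (TCDD, day 2). The day 2 means of *hbae1* in both treatments and of *hbae3* in TCDD embryos are therefore lower bounds. Each printed rise to them or fall from them is at least as large as printed, whereas a printed rise from them is an upper bound.

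In the embryo channel, *hbae1*, *hbae3*, *hbbe1*, *hbbe2* and *ba1* rose between day 1 and day 2 in both treatments, and the first 3 of these fell between day 3 and day 4, whereas no step of *hbbe2* after day 2 was called. The F-test over the 5 days (limma, Benjamini-Hochberg adjusted p below 0.05) called these 5 probes of 7 in TCDD embryos, where 48.3% of all probes were called, and the same 5 in DMSO embryos, where the background was 47.0%. The step from day 1 to day 2 was called higher for the 5 probes in each treatment, against 10.6% of all probes in TCDD and 12.9% in DMSO embryos. From day 2 to day 3, *hbae1* and *hbae3* were called lower in TCDD embryos (background 5.75%), and *hbae1*, *hbae3* and *hbbe1* in DMSO embryos (4.56%). Between days 3 and 4, *hbae1*, *hbae3* and *hbbe1* were lower in both treatments, where 5.02% of probes were called in TCDD and 4.40% in DMSO. Between days 4 and 5 no member was called lower in either treatment (1.24% and 1.02% of all probes in TCDD and DMSO).

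**Figure D1:**
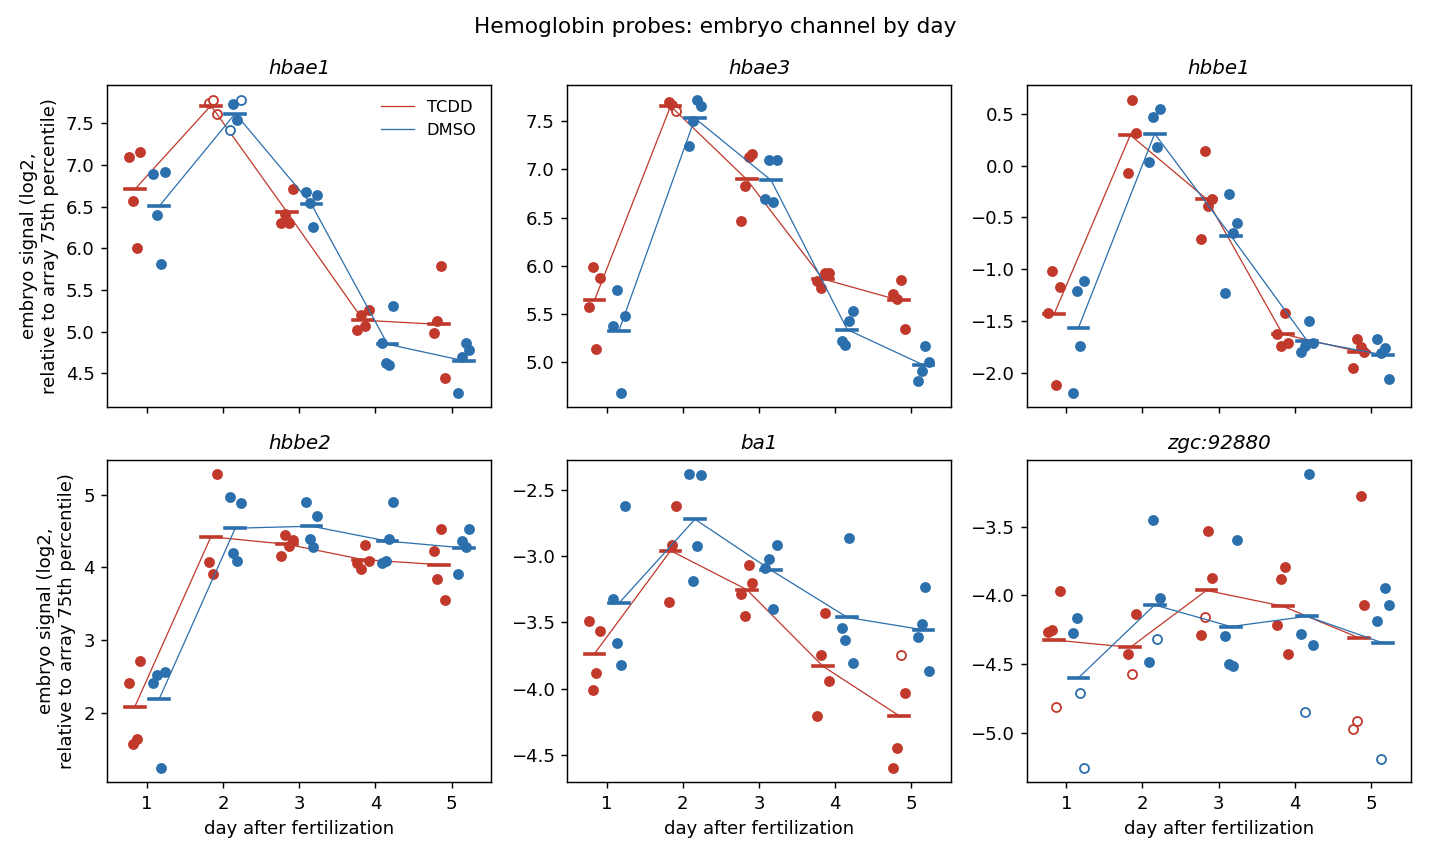
Embryo signal of 6 hemoglobin probes by day (log2 relative to the array's 75th percentile; days after fertilization on the x axis). Points are arrays, bars are group means of TCDD (red, left) and DMSO (blue, right) joined by lines, and open circles mark saturated spots or spots not well above background. *hbae1*, *hbae3* and *hbbe1* peak on day 2 and fall, and *hbbe2* stays up after day 2. For *hbae3* the mean of TCDD lies above that of DMSO on each day, without overlap of the arrays on days 4 and 5. On day 4 the processed reference signal of these spots (not shown) did not overlap between treatments either.

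*hbae3*, an embryonic α-globin, rose to day 2 and fell afterwards. In TCDD embryos it stood at 5.57, 5.99, 5.14 and 5.87 on day 1, and at 7.70, 7.66 and 7.60 on day 2. In DMSO embryos it stood at 5.38, 5.75, 4.69 and 5.48 on day 1, and at 7.24, 7.50, 7.72 and 7.65 on day 2. The arrays of day 2 were above all arrays of day 1 in both treatments. The step was 2.01 in TCDD embryos (4.03-fold, SE 0.20, limma adjusted p = 8.07e-10, 3 against 4 arrays, a lower bound as replicate 4 of day 2 was saturated, and 2.04 with that spot missing) and 2.20 in DMSO embryos (4.61-fold, SE 0.19, adjusted p = 1.29e-11). On days 1 to 5 the group means were 5.64 ± 0.38, 7.66 ± 0.05, 6.90 ± 0.32, 5.86 ± 0.08 and 5.64 ± 0.21 in TCDD embryos, and 5.32 ± 0.45, 7.53 ± 0.21, 6.89 ± 0.24, 5.34 ± 0.17 and 4.97 ± 0.16 in DMSO embryos (SD, n = 4, and 3 on TCDD day 2). The fall from day 3 to day 4 was smaller in size in TCDD (-1.03, adjusted p = 0.000155) than in DMSO embryos (-1.55, adjusted p = 1.69e-07), but the joint test that the day profiles differ between treatments called no member in this channel, against a background of 0.126% of all probes. The fall from day 2 to day 3 (-0.76 in TCDD, adjusted p = 0.00853, and -0.64 in DMSO embryos, adjusted p = 0.0201) was less firm. It was not called without experiment 1 or 2 in TCDD (adjusted p = 0.0860 and 0.116), nor without any 1 of the experiments in DMSO embryos (0.0514 to 0.0969). Day 5 minus day 1 was 0.00 in TCDD (adjusted p = 0.997) and -0.35 in DMSO embryos (adjusted p = 0.128), which became -0.63 (adjusted p = 0.00474) without experiment 3.

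*hbae1*, the other embryonic α-globin, started high and ended lower than it started. In TCDD embryos it stood at 7.10, 6.57, 6.00 and 7.16 on day 1, at 5.02, 5.20, 5.07 and 5.26 on day 4 and at 4.99, 5.13, 5.80 and 4.44 on day 5. In DMSO embryos it stood at 6.89, 6.40, 5.81 and 6.92 on day 1, at 4.87, 4.63, 4.60 and 5.31 on day 4 and at 4.27, 4.70, 4.86 and 4.78 on day 5. All arrays of days 4 and 5 were below all arrays of day 1 in both treatments. Its group means on days 1 to 5 were 6.71 ± 0.54, 7.71 ± 0.09, 6.44 ± 0.19, 5.14 ± 0.11 and 5.09 ± 0.56 in TCDD embryos, and 6.51 ± 0.52, 7.62 ± 0.17, 6.53 ± 0.19, 4.85 ± 0.33 and 4.65 ± 0.27 in DMSO embryos. Because the spots of day 2 were saturated in TCDD embryos, *hbae1* was at least 1.99-fold higher on TCDD day 2 than on TCDD day 1. It was at least 2.16-fold higher than on TCDD day 3. The fit of the embryo channel, scaled otherwise, gave 2.01-fold for the first step (limma adjusted p = 0.00337, or 0.082 without experiment 2). For the second it gave 2.43-fold (adjusted p = 0.000561). The bounds of 1.99 and 2.16 were calculated after loess normalization within arrays and quantile normalization of average spot intensity across arrays. They could carry dye bias, since no dyes were swapped. The net signals of day 2 were 65253, 64862 and 65252 in TCDD and 65242, 64480, 45960 and 65224 in DMSO embryos. Only replicate 3 of DMSO lay clearly below the top of the scanner's range. From day 3 to day 4 the signal fell by 1.30 in TCDD embryos (adjusted p = 0.00021) and by 1.68 in DMSO embryos (adjusted p = 3.65e-06). On day 5 it was lower than on day 1, by 3.07-fold in TCDD (adjusted p = 5.86e-07) and by 3.61-fold in DMSO embryos (adjusted p = 4.23e-08).

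*hbbe1*, an embryonic β-globin whose gene lies within the same stretch of chromosome 3, also rose and fell. Its embryo signal was -1.42, -1.02, -2.11 and -1.17 on TCDD day 1 and -0.07, 0.63 and 0.31 on TCDD day 2, and it was -2.19, -1.21, -1.73 and -1.11 on DMSO day 1 and 0.04, 0.47, 0.18 and 0.54 on DMSO day 2. Day 2 lay above day 1 on every array of both treatments. In TCDD embryos its group means on days 1 to 5 were -1.43 ± 0.49, 0.29 ± 0.35, -0.32 ± 0.35, -1.62 ± 0.14 and -1.79 ± 0.12, and in DMSO embryos -1.56 ± 0.50, 0.31 ± 0.24, -0.68 ± 0.40, -1.68 ± 0.13 and -1.82 ± 0.17. The rise to day 2 was 3.30-fold in TCDD (adjusted p = 6.76e-07) and 3.65-fold in DMSO embryos (adjusted p = 2.54e-08). From day 2 to day 3 it was -0.61 in TCDD (adjusted p = 0.0924, not called, but -0.95 and 0.0426 without experiment 2) and -0.98 in DMSO embryos (adjusted p = 0.00214). Over the 39 arrays its embryo signal correlated with that of *hbae3* at r = 0.93 and with that of *hbae1* at r = 0.79, where the arrays share days and so the common time course.

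*hbbe2*, the embryonic β-globin of chromosome 12, rose to day 2, and no later step was called. Its embryo signal was 2.41, 1.56, 1.63 and 2.71 on TCDD day 1 and 4.07, 3.90 and 5.28 on TCDD day 2. In DMSO embryos it was 2.41, 2.52, 1.24 and 2.56 on day 1 and 4.97, 4.20, 4.09 and 4.89 on day 2. These 2 days did not overlap in either treatment, and the rise was 5.06-fold in TCDD (adjusted p = 4.71e-07) and 5.11-fold in DMSO embryos (adjusted p = 7.96e-08). Means on days 2 to 5 lay at 4.42 ± 0.75, 4.32 ± 0.12, 4.10 ± 0.14 and 4.04 ± 0.43 in TCDD embryos, and at 4.54 ± 0.46, 4.56 ± 0.29, 4.36 ± 0.39 and 4.27 ± 0.26 in DMSO embryos. On day 5 it was still 3.88-fold above day 1 in TCDD and 4.23-fold in DMSO embryos (adjusted p = 8.33e-07 and 2.59e-07). The correlation of its embryo signal with that of *hbae1* was -0.05 over the 39 arrays.

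The adult β-globins were dim. *ba1* rose to day 2 by 1.72-fold in TCDD (adjusted p = 0.0252) and by 1.55-fold in DMSO embryos (adjusted p = 0.0465), and no later step between successive days was called. The rise was not called without experiment 2, 3 or 4 in TCDD (adjusted p = 0.0634, 0.0895 and 0.141), nor without experiment 1, 2 or 3 in DMSO embryos (0.239, 0.0980 and 0.135). Its net signal of 24.2 to 125 over all arrays lay close to the background, and the sizes of these steps are limited by that. *zgc:92880* had no called step in the embryo channel in either treatment, and neither did *hbaa1*.

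7 marker probes of primitive red cells (*klfd*, *slc4a1*, *rhag*, *cahz*, *sptb*, *epb41* and *gata1*) gave the setting of these time courses. 6 of the 7 were well above background on all arrays and none was dim on every array. Their summed linear embryo level, in units of the array's 75th percentile, was 12.8 to 17.4 in TCDD and 12.7 to 17.7 in DMSO embryos on day 2, and 4.47 to 7.67 and 4.82 to 6.43 on day 5 in TCDD and DMSO embryos. From day 2 to day 3, 4 of the 7 were called lower in TCDD embryos and 5 in DMSO embryos, beside 5.75% and 4.56% of all probes. From day 3 to day 4, 1 was called lower in TCDD and 0 in DMSO embryos (2 at an unadjusted p below 0.01), on a step where *hbae1*, *hbae3* and *hbbe1* were lower in both treatments.

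The log2 ratio gave another time course for the bright α-globins, whose reference signal moved with the embryo signal of the same spot. In DMSO embryos, where *hbae3* was never saturated, it differed between day 5 and day 2 by -2.56 in the embryo channel, by -2.18 in the reference channel and by -0.39 in the ratio. For *hbae1* the reference channel differed by -2.46. Its measured embryo and ratio changes were -2.97 and -0.51, which can only be bounds, as 2 of the 4 DMSO spots of day 2 were saturated. For the dim *hbbe1* the embryo, reference and ratio differences were -2.13, -0.19 and -1.95. The reference RNA was the same on every array. As the reference channel of *hbae3* fell too, most of its embryo change between these days was not in the ratio. Among all probes well above background on all arrays whose embryo signal fell by 1 or more over the same days, 56 had a mean log2 ratio of 5 or more, and the reference was lower on day 5 for 50 of them (89.3%, median change -0.68 against -1.48 in the embryo channel). These 56 include *hbae1* and *hbae3*. With a mean ratio from 3 to 5 the reference was lower for 89 of 121 such probes (73.6%, median -0.22). From 1 to 3 it was lower for 144 of 192 (75%, median -0.10). Among 517 such probes with a mean ratio from -1 to 1, the reference was lower for 334 (64.6%, median -0.05). The reference channel of the bright *hbbe2* moved as well, on the step from day 1 to day 2. It rose by 2.76 in DMSO (limma adjusted p = 5.77e-05) and by 1.16 in TCDD embryos (not called), beside 2.35 and 2.34 in the embryo channel. On DMSO day 1, however, that reference was well above background on only 1 of 4 arrays. What moves the reference channel of bright spots was not tested.

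**Figure D2:**
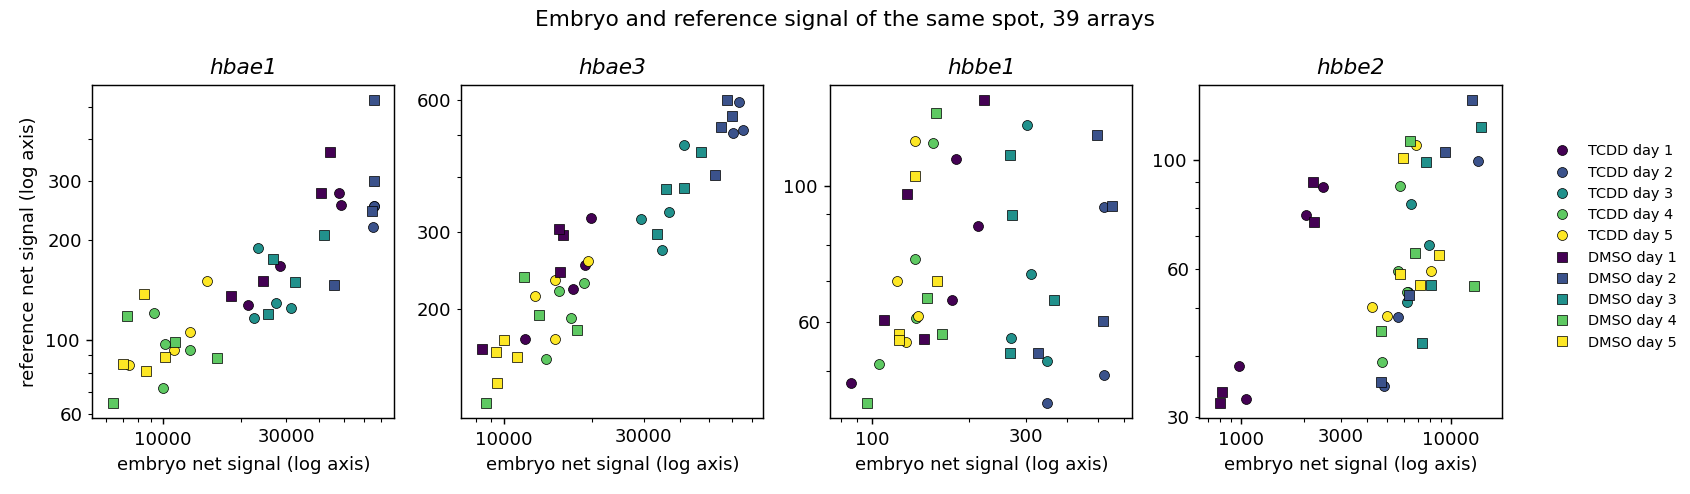
Net reference signal against net embryo signal of the same spot (fluorescence units, log axes) for 4 embryonic globins. Each point is 1 of 39 arrays, circles are TCDD and squares DMSO, colored by day. The reference signal of *hbae1* and *hbae3* climbs with the embryo signal and is highest on day 2, while that of *hbbe1* does not follow it.

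On the ratio, the F-test over days called 3 members in TCDD embryos, *hbbe1* (adjusted p = 1.96e-07), *hbbe2* (0.0289) and *zgc:92880* (0.0367), where 48.0% of all probes were called. In DMSO embryos it called 2, *hbae3* (0.00235) and *hbbe1* (4.1e-06), against 49.9%. The ratio of *hbbe1* rose by 1.86 from day 1 to day 2 in TCDD (adjusted p = 3.45e-05) and by 1.63 in DMSO embryos (adjusted p = 6.58e-05). Its fall from day 3 to day 4 was -1.42 in TCDD (adjusted p = 0.00109, or 0.0563 without experiment 2) and -0.85 in DMSO embryos (adjusted p = 0.059, and 0.0163 with the experiment as a replicate block). For *hbbe2* the ratio and the embryo signal parted. Its ratio on day 2 against day 1 was 1.19 in TCDD embryos (adjusted p = 0.0347, 0.0543 with the replicate block, 0.0592 with a scan batch block, and 0.131, 0.134 and 0.108 without experiment 1, 3 or 4) and -0.41 in DMSO embryos (adjusted p = 0.515), although its embryo signal rose in both. On day 5 against day 1 its ratio was 1.16 in TCDD embryos (adjusted p = 0.0134, or 0.0757 without experiment 1 and 0.271 without experiment 3), and 0.74 (adjusted p = 0.113) without the TCDD day 5 array of replicate 3. For *zgc:92880* the ratios were -0.18, 0.28, 2.77 and -0.11 on TCDD day 5 and -0.95, -0.46, -0.38 and -1.58 on TCDD day 1. The days did not overlap, and the highest value by far was that of replicate 3 on day 5. *zgc:92880* had a ratio 1.53 higher on TCDD day 5 than on TCDD day 1 (adjusted p = 0.00225). Without the same array the difference was 0.84 (adjusted p = 0.0213), and in the embryo channel it was 0.02.

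**Figure D3:**
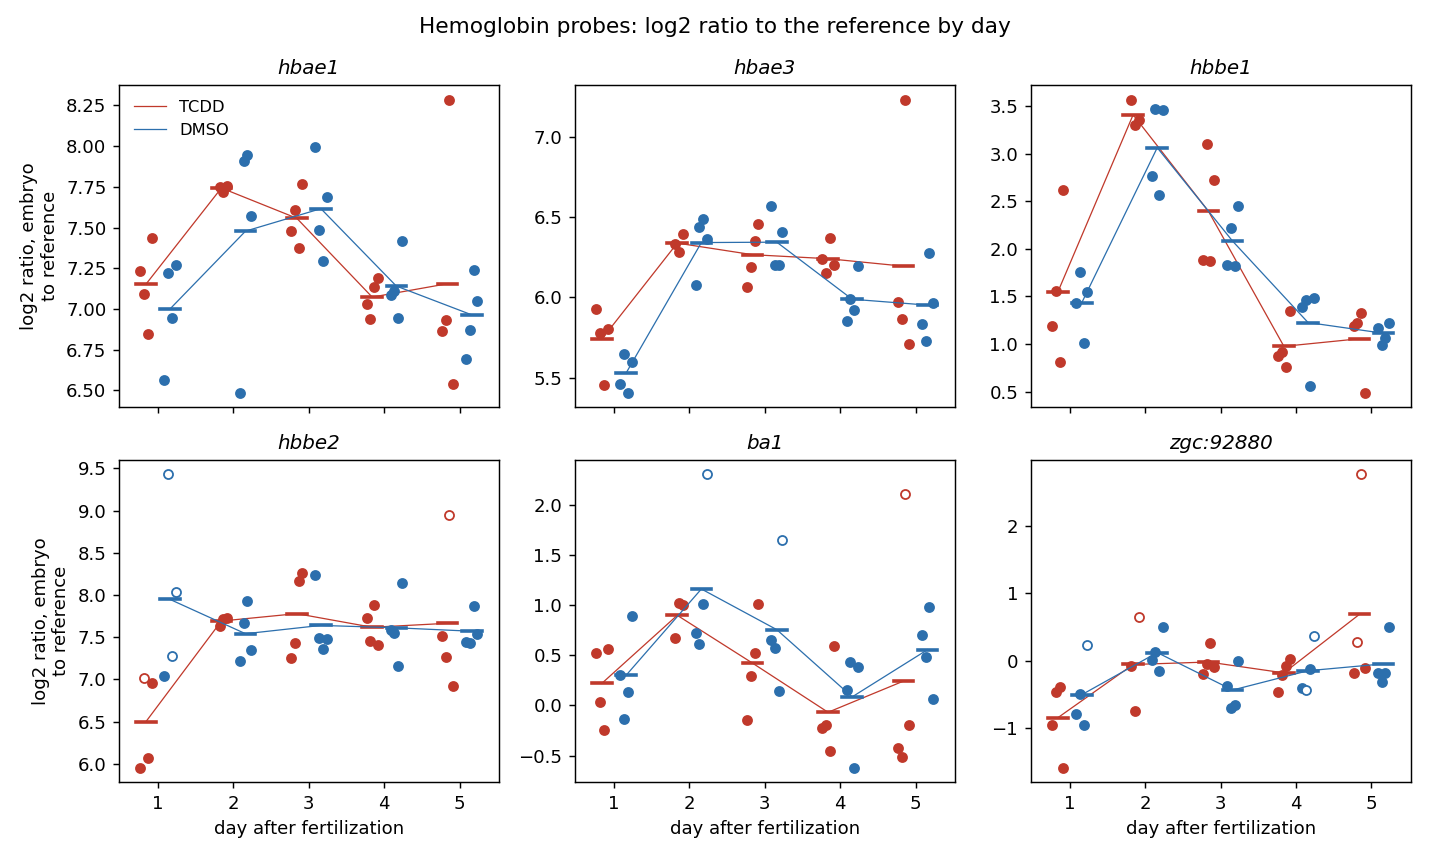
Log2 ratio of embryo to reference signal by day after fertilization for 6 hemoglobin probes. Points are arrays of TCDD (red, left) and DMSO (blue, right), bars are group means joined by lines, and open circles mark spots whose reference was not well above background. On day 1 the *hbbe2* ratios of TCDD lie below those of DMSO, and 1 TCDD array of day 5 (replicate 3) stands high for 5 of the probes.

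The main question was whether TCDD changed the hemoglobin messages. On the log2 ratio none of the 7 probes was called on any day at an adjusted p below 0.05 (limma, all 39 arrays), when 0.0140%, 0.703%, 2.75%, 0.893% and 6.27% of all probes were called on days 1, 2, 3, 4 and 5. At the unadjusted p below 0.01 of the study's methods, 1 member was counted, *hbbe2* on day 1, against 0.717% of all probes on that day. None was counted on days 2, 3, 4 and 5, when 3.30%, 6.52%, 3.38% and 9.24% of all probes were. At an unadjusted p below 0.05 the counts were 1 on day 1 and 0 on days 2 to 5. The median difference of the 7 probes on days 1 to 5 was 0.11, 0.15, -0.06, -0.03 and 0.09, beside 0.00, 0.01, 0.03, 0.01 and -0.00 over all probes. The joint test of a treatment effect that varies over days called no member on the ratio (0.0931% of all probes were called), where *hbbe2* had an adjusted p of 0.741. In the embryo channel, no member was called on days 1 to 4 (background 0.0140%, 0.102%, 0.879% and 0.140%) and 1 of 7, *hbae3*, on day 5 (4.89%). The counts in that channel at an unadjusted p below 0.05 were 0, 1 (*hbaa1*), 0, 1 (*hbae3*) and 2 (*hbae3* and *ba1*) on days 1 to 5. Of these, *hbaa1* was not well above background in any embryo sample. The share of all probes below 0.05 was not counted for the ratio or the embryo channel. The counts at that threshold thus have no background and are not read as a result.

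The 95% intervals differed widely between the probes. For *hbae1* on day 3, the interval of the ratio difference was -0.61 to 0.49, and for *hbae3* it was -0.47 to 0.31. In the embryo channel the same intervals were -0.58 to 0.39 and -0.37 to 0.39. On day 2, when the α-globins were highest, *hbae3* differed by 0.13 in the embryo channel (-0.28 to 0.53). For *hbae1*, saturated on all 3 TCDD arrays and 2 of 4 DMSO arrays, no fold is given on that day, as both groups were at the top of the range. *hbbe1*, which was never saturated, differed by -0.01 on day 2 (-0.50 to 0.47). On the ratio the intervals were wider for *hbbe2* on day 2 (-0.70 to 1.00), for *ba1* on day 2 (-1.21 to 0.69) and for *zgc:92880* on day 5 (-0.10 to 1.57), so that sizeable differences of these probes would not have been detectable.

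**Figure D4:**
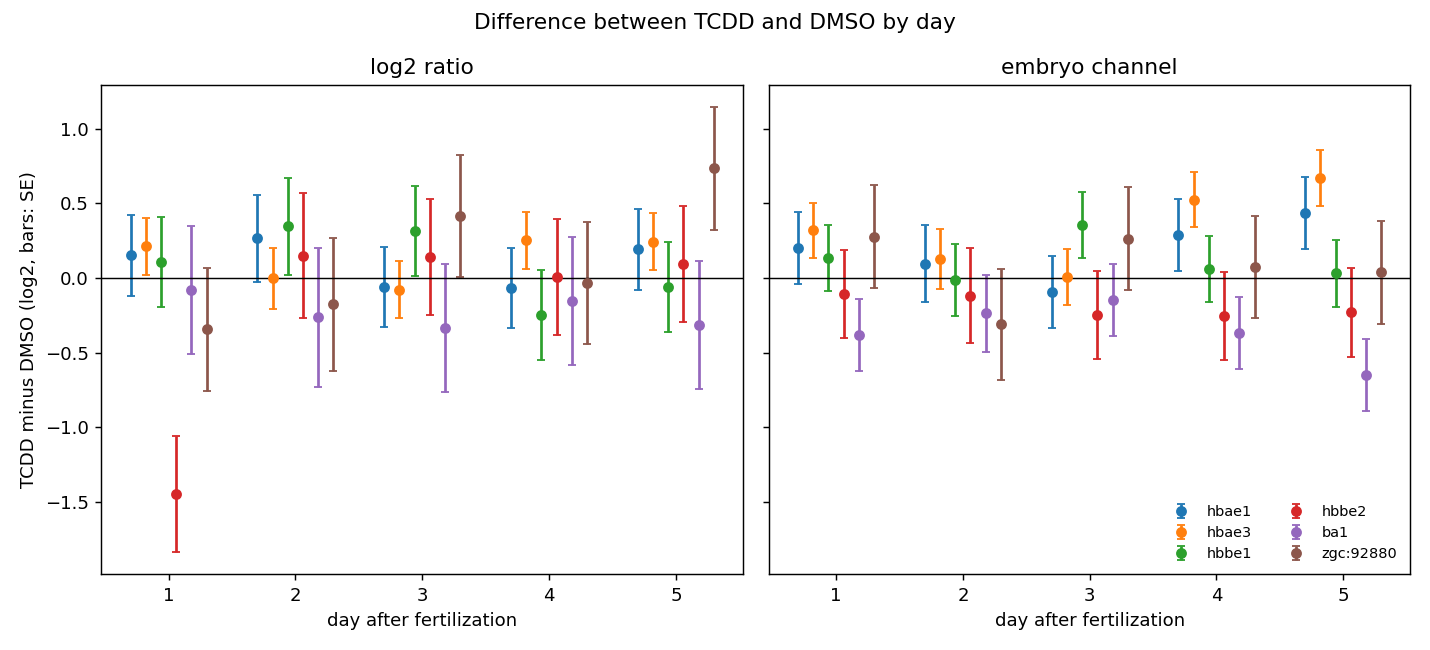
Difference between TCDD and DMSO embryos (log2, TCDD minus DMSO) of 6 hemoglobin probes by day, for the ratio and for the embryo channel. Points are limma estimates and bars their standard errors. *hbbe2* stands at -1.45 on day 1 in the ratio but at -0.11 in the embryo channel. In the embryo channel *hbae3* stands at 0.32, 0.13, 0.01, 0.52 and 0.67 on days 1 to 5.

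*hbbe2* on day 1 had the lowest unadjusted p of the members on the ratio. Its ratios were 5.95, 7.02, 6.07 and 6.95 in TCDD embryos, against 7.05, 9.43, 7.28 and 8.04 in DMSO embryos. The groups did not overlap, and TCDD was lower in 4 of 4 experiments. The difference was -1.45 (SE 0.39, 95% interval -2.24 to -0.66, limma unadjusted p = 0.000755), which did not pass adjustment over all probes (adjusted p = 0.573). The embryo net signal behind these ratios was 2046, 987, 1064 and 2457 in TCDD embryos, against 2234, 818, 798 and 2209 in DMSO embryos. These values overlapped and separated by experiment rather than by treatment, and the embryo channel differed by only -0.11 (SE 0.30, interval -0.71 to 0.49, adjusted p = 1). The reference net signal was 77.3, 38.0, 32.7 and 88.3 on the TCDD arrays, against 74.9, 33.7, 32.0 and 90.1 on the DMSO arrays, again alike within each experiment. After the scanner software's processing, the reference signal was 166, 52.3, 112 and 114 on the TCDD arrays, against 87.3, 19.3, 40.6 and 38.9 on the DMSO arrays. It was well above background on 3 TCDD arrays and 1 DMSO array, and on 2 DMSO arrays it was a substitute value that the software sets for dim spots. In the reference channel the difference was 1.33 (SE 0.40, unadjusted p = 0.00246, adjusted p = 1). The ratio difference thus lay almost wholly in the processed reference signal, which was near background, and the reference RNA was the same on every array.

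With another background correction and normalization (normexp and loess) the *hbbe2* difference was -0.19 (adjusted p = 1). A fit without dim reference spots would leave a single DMSO array (3 of the 4 DMSO arrays had a reference spot not well above background). In experiment 1, the only one whose reference was well above background on both arrays, the difference was -1.09. Within the 3 scan batches the ratio differed by -1.09, -1.81 and -1.08, and the embryo channel by -0.00, -0.28 and 0.15.

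**Figure D5:**
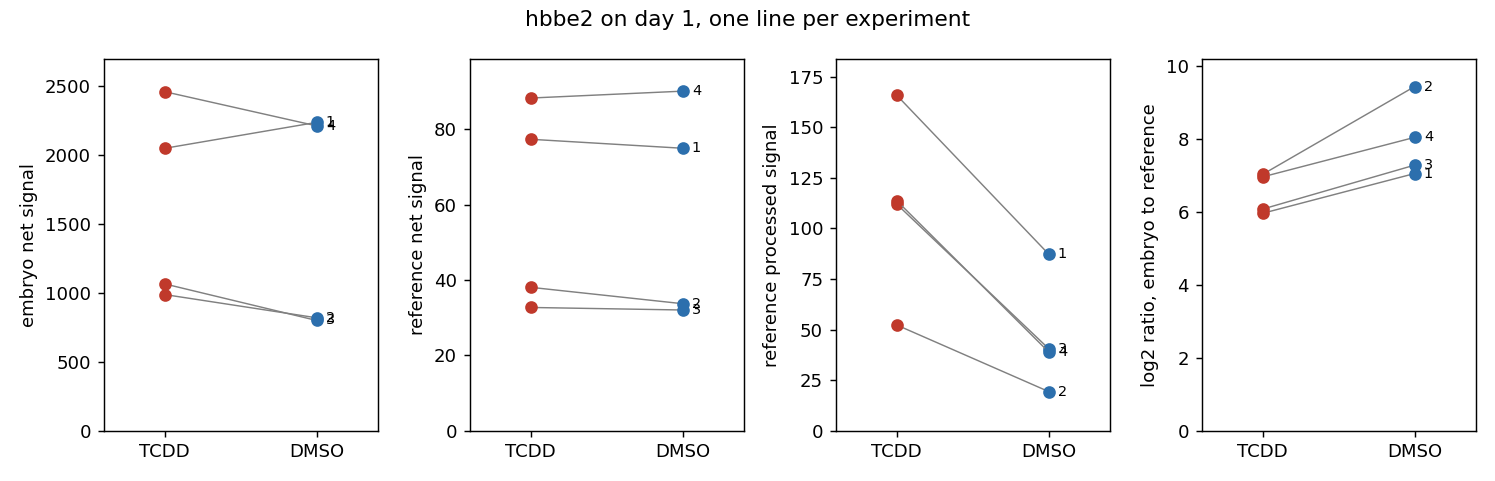
*hbbe2* on day 1 as embryo net signal, reference net signal, reference processed signal (fluorescence units) and log2 ratio, from left to right. Points are arrays of TCDD (red) and DMSO (blue), each line joins the 2 arrays of 1 experiment and the number names the experiment. The net signals pair by experiment, while the processed reference is higher and the ratio lower in TCDD in all 4 experiments.

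*hbae3* on day 5 was the only member called between treatments in the embryo channel. It stood at 5.71, 5.66, 5.86 and 5.35 in TCDD embryos, against 4.81, 4.91, 5.18 and 5.00 in DMSO embryos. Every TCDD array was above every DMSO array. TCDD was higher in 4 of 4 experiments, though the 2 arrays of experiment 3 lay in different scan batches. The difference was 0.67 (1.59-fold, SE 0.19, 95% interval 0.29 to 1.05, limma adjusted p = 0.0292). On day 4 it stood at 5.84, 5.77, 5.93 and 5.93 in TCDD embryos, against 5.22, 5.18, 5.43 and 5.53 in DMSO embryos. These groups did not overlap either, with a difference of 0.52 (SE 0.19, unadjusted p = 0.00808), which did not pass adjustment (adjusted p = 0.459). The processed reference channel of these spots was also higher in TCDD in 4 of 4 experiments (0.08 to 0.45), without overlap. Its difference on day 4 was 0.31 (limma unadjusted p = 0.0919). The net reference signals of day 4 overlapped, at 191, 154, 220 and 230 in TCDD and 194, 122, 238 and 180 in DMSO. On days 1, 2 and 3 the embryo channel differed by 0.32, 0.13 and 0.01, none of them called. On day 1 TCDD was higher in 4 of 4 experiments (0.19 to 0.46), though the groups overlapped. The ratio differed by 0.24 on day 5 (adjusted p = 0.564) and by 0.25 on day 4 (adjusted p = 0.846). On day 5 the reference net signal of the same spots was 257, 233, 172 and 215 on the TCDD arrays, against 136, 160, 171 and 155 on the DMSO arrays, and in the reference channel the difference was 0.47 (unadjusted p = 0.0138, adjusted p = 0.934). The net reference signal was thus higher in TCDD in 4 of 4 experiments, barely so in experiment 3 (172 against 171), and the groups did not overlap. The processed reference channel of this spot was higher in TCDD in 3 of 4 experiments (-0.16 to 0.75 over all 4), and its groups overlapped. The call was lost without the TCDD day 5 array of replicate 3 (0.60, adjusted p = 0.0895) and without experiment 1, 2 or 4 (0.59, 0.64 and 0.78, adjusted p = 0.213, 0.123 and 0.108). It held without experiment 3 (0.67, adjusted p = 0.0489), with scan batch as a block (0.64, adjusted p = 0.0253) and with the experiment as a block (0.67, adjusted p = 0.0176). Within the 2 batches that held both treatments the difference was 0.72 (2 TCDD and 3 DMSO arrays) and 0.60 (2 and 1).

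Several cell type markers moved on day 5 as well, when 4.89% of all probes were called in the embryo channel. Counts are of probes, and some lists hold several probes of the same gene, such as *apoeb* (yolk and liver) and *f5* (thrombocytes). In the embryo channel 0 of 7 primitive red cell probes were called (0 at an unadjusted p below 0.01, median 0.03). Of 12 red cell membrane and cytoskeleton probes, a list that shares probes with these, 1 was higher (2 at an unadjusted p below 0.01, median 0.03). The summed level of that list was 50.3 to 54.1 in TCDD, against 42.8 to 46.3 in DMSO embryos. 7 of 14 neutrophil and macrophage probes were higher (summed level 11.7 to 27.7 in TCDD, against 8.77 to 10.9 in DMSO embryos). Of 16 yolk and liver probes 6 were higher (565 to 603 in TCDD, against 369 to 470 in DMSO embryos), and of 7 heart muscle probes 2 were lower (3.76 to 6.17 in TCDD, against 7.04 to 7.86 in DMSO embryos). 2 of 4 thrombocyte probes were higher (3.81 to 7.15 in TCDD, against 2.07 to 2.31 in DMSO embryos), and 0 of 5 endothelial and 0 of 9 fibroblast probes were called. The part of these markers in the *hbae3* difference was not tested. No other hemoglobin was called on day 5. *hbae1* differed by 0.44 (adjusted p = 0.395), or 0.20 without the TCDD array of replicate 3, and *hbbe1* by 0.03 (adjusted p = 0.984). *hbbe2* differed by -0.23 (adjusted p = 0.84).

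*ba1* gave the opposite sign on day 5. Its embryo signal was -4.60, -4.45, -3.74 and -4.03 in TCDD embryos, against -3.61, -3.51, -3.24 and -3.87 in DMSO embryos. 3 of the 4 TCDD arrays lay below all DMSO arrays, and the highest TCDD value came from replicate 3, whose spot was not well above background. Within experiments TCDD was lower in 4 of 4 on day 5 (-0.99 to -0.17), and also in 4 of 4 on day 1 and on day 4. The difference was -0.65 (SE 0.24, adjusted p = 0.126). With scan batch as a block it was -0.71 (adjusted p = 0.0478), but with the experiment as a block it was -0.65 (adjusted p = 0.0869, not called). Within the batches it was -1.07 (2 TCDD and 3 DMSO arrays) and -0.02 (2 and 1), and its raw signal with no dye normalization differed by -0.54 (adjusted p = 0.831). In the ratio the difference was -0.31, or -0.93 without the TCDD array of replicate 3 (adjusted p = 0.154). With reference spots not well above background missing, which drops the same spot, it was also -0.93 (adjusted p = 0.0407).

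The TCDD day 5 array of replicate 3 lay in the scan batch of 11 arrays, while the other arrays of replicate 3 lay in that of 24. Comparisons of treatments within experiment 3 on day 5 therefore cross scan batches. This TCDD array of day 5 stood apart for the hemoglobins on the ratio. Its ratios were 8.29 for *hbae1* (6.54 to 6.93 on the other 3 arrays), 7.23 for *hbae3* (5.71 to 5.97), 8.95 for *hbbe2* (6.92 to 7.51), 2.10 for *ba1* (-0.51 to -0.20) and 2.77 for *zgc:92880* (-0.18 to 0.28). Without it, the difference between TCDD and DMSO embryos on day 5 was -0.19 for *hbae1* and -0.10 for *hbae3* on the ratio, against 0.19 and 0.24 with it. Over 421 probes with a mean log2 ratio of 5 or more, its median deviation in the reference channel was 0.09, within the range of -0.17 to 0.25 over all arrays. For the bright hemoglobins its processed reference signal was lower than on the other 3 arrays: -2.28 for *hbae1* (-1.97 to -1.71), -1.16 for *hbae3* (-0.23 to -0.11) and -4.21 for *hbbe2* (-3.33 to -3.17). The net reference signal of the same spots was lower only for *hbae3* (172, against 215 to 257). It was higher for *hbae1* (151, against 84.5 to 106) and for *hbbe2* (107, against 48.1 to 59.4). The cause was not tested. The embryo signal was also higher there than on the other 3 arrays for *hbae1* (5.80, against 4.44 to 5.13) and *hbae3* (5.86, against 5.35 to 5.71). The same held for *hbbe2* (4.53, against 3.54 to 4.23), *ba1* (-3.74, against -4.60 to -4.03) and *zgc:92880* (-3.28, against -4.97 to -4.07). For *hbbe1* it was not the highest (-1.75, against -1.95 to -1.67).

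Genes of the wider red cell program were also followed on the ratio. Among 15 probes of erythroid regulators, none was called on day 1 and 1 was lower on each of days 2 to 5, beside 0.703%, 2.75%, 0.893% and 6.27% of all probes called on those days. That probe was *cbfb*, the partner subunit of Runx transcription factors, at -0.49 (adjusted p = 0.0492), -0.69 (0.000293), -0.60 (0.00537) and -0.75 (7.84e-05) on days 2 to 5. In the embryo channel *cbfb* was at -0.36 (adjusted p = 0.579), -0.57 (0.0263), -0.61 (0.0522) and -0.80 (0.000312), so that it was called there on days 3 and 5 only. Of 7 probes of heme synthesis, *alas1*, the general form of its first enzyme, was higher on day 4 (0.70, adjusted p = 0.00279) and day 5 (0.97, adjusted p = 9e-06), and no other was called. Of 12 probes of the red cell membrane and cytoskeleton, *wu:fj41h10* (now *gypc*, a glycophorin) was lower on day 3 (-0.69, adjusted p = 0.0362), where its embryo signal differed by -0.09 (adjusted p = 0.898). None of 11 iron handling probes, 5 probes of other globins (*mb*, *ngb* and *cygb*) and 8 probes of globin partners and red cell antioxidants was called on any day, nor did any reach an unadjusted p below 0.01. On day 5 the list medians were -0.16 for the regulators, 0.06 for heme synthesis, 0.17 for the membrane, 0.16 for iron handling, 0.26 for the other globins and -0.18 for the partners, beside -0.00 over all probes.

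The probes with the most similar ratio over the 39 arrays were sought among 8646 named probes well above background in every embryo sample. *hbae3* was most like *pdlim7* (r = 0.83), *zgc:100865* (now *kctd15b*, 0.83) and *zgc:86800* (0.82), and *hbae1* was most like *tuba1* (0.77), *wu:fb58g10* (0.69) and *apoa* (0.69). Over the arrays these are the nearest profiles, and nothing about function is taken from them. *hbbe1* was most like *alcam* (0.90), *zgc:77257* (now *insm1a*, 0.90) and *neurod4* (0.87). For *hbbe2* the likeness was weaker, with *zgc:91947* (now *pvalb4*, 0.56), *zgc:85965* (now *msrb2*, 0.54) and *Gamt* (0.54) at the top. *ba1* was most like *wu:fa56h12* (0.75), *wu:fk82e01* (0.74) and *zgc:103587* (now *fabp4a*, 0.72), and *zgc:92880* most like *sb:cb1035* (0.77), *accn4a* (0.74) and *zgc:77518* (0.72). No hemoglobin was counted among these candidates. The arrays share days and treatments, and a correlation over them is a description only.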

How the data were processed

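RNA of pooled whole embryos and of the Zf4 reference had been hybridized to 2-colour Agilent 22K oligo arrays. The authors extracted spots with Agilent Feature Extraction 8.1.1, per the labels, which gave the deposited intensity values (spot means, local background and processed, dye-normalized signals), the deposited log10 ratio with its error and score-like flags for saturated, dim and outlier spots. The series table deposited by the authors holds the same log10 ratios (880425 of 880425 values equal within 1e-06). Ratios were turned to log2, outlier spots were left out, and limma 3.58.1 (R 4.3.3) was fitted with 1 mean per day and treatment over all 39 arrays, without a block, with Benjamini-Hochberg adjustment over all 21495 probes and a threshold of 0.05. The unadjusted p below 0.01 follows the study's methods. Processed embryo and reference signals, as log2 minus the 75th percentile of each array, were fitted alone in the same way. Net signal is the spot mean minus its local background.

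The members and the gene lists were chosen with earlier results of these data known. The text names the 7 hemoglobin probes, *cyp1a*, up to 3 called genes of each list by lowest adjusted p, and the 3 named probes most correlated with each hemoglobin (those of *hbaa1* are not given, as it was not above background). Of 7847 probes with a RefSeq accession, 7323 matched a current symbol. Same-numbered arrays were taken to share an experiment, as the labels number the replicates and the study's methods describe independent repeats of the whole experiment. The deviations of TCDD and DMSO arrays of 1 experiment correlated at a median r of 0.236 over 19 pairs (-0.139 to 0.401), against -0.0687 over 57 pairs of different experiments. On data simulated for TCDD against DMSO on day 5 (21495 probes, 200 changed by 1 on the log2 scale), 63.5% of changed probes were recovered and 5 unchanged ones called. The simulated noise was normal and independent between arrays and probes, with no experiment, batch or outlier array. These rates therefore check the fit and need not hold for the real arrays. Arrays were tested by scan batch as read from the file headers. Between 29 and 93 embryo spots per array were saturated (median 57). Precision is set by how few arrays each group has. Alternatives to each choice are described after the report.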

Additional observations from a re-analysis of the deposited data

Results flagged for a closer look

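6 of 54 groups of 4 arrays held a ratio whose gap to the nearest other array was large for the group's range by Dixon's criterion at 95%. Chance alone marks about 1 in 20 such groups. 3 of these were on day 5 in TCDD embryos. There, *ba1* stood at 2.10 in replicate 3 against -0.51 to -0.20 in the others, *zgc:92880* stood at 2.77 in replicate 3 against -0.18 to 0.28, and *hbbe1* stood at 0.49 in replicate 4 against 1.19 to 1.32. Both high values came from spots whose reference was not well above background, as the plot of the ratios by day shows. In DMSO embryos, *hbbe1* was 0.56 in replicate 3 of day 4 against 1.39 to 1.49, *hbbe2* was 8.23 in replicate 1 of day 3 against 7.36 to 7.48, and *zgc:92880* was 0.50 in replicate 4 of day 5 against -0.31 to -0.18.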

How the results depend on the processing

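On the ratio, no alternative that changed a fit made TCDD against DMSO call more than 1 of the 7 probes on any day. On day 5, 1 probe was called with the embryo channel alone, with the raw embryo channel and with dim reference spots missing, but not the same one. It was *hbae3*, higher in TCDD, in the first 2 fits (0.67 and 0.65, limma adjusted p = 0.0292 and 0.0304). With dim reference spots missing it was *ba1*, lower in TCDD (-0.93, adjusted p = 0.0407). Over all probes these fits called 1051, 593 and 1406 on that day. On day 3, 1 (*zgc:92880*, 0.57, adjusted p = 0.0173) was called with the software's errors as weights. That fit called 3632 of all probes on day 3, against 591 without the weights, so the call is not particular to this probe. On day 1, 1 was counted at an unadjusted p below 0.01, beside 0.717% of all probes. In the embryo channel on day 5, 2 were called with scan batch as a block, 0 without the TCDD day 5 array of replicate 3, and 0 to 1 when each replicate was left out. The number of members that changed over days in TCDD embryos (3 on the ratio) was 5 with normexp and loess, with the embryo channel alone, with array weights and with error weights, and 1 to 4 when each replicate was left out. In DMSO embryos (2 on the ratio) it was 4 with normexp and loess, with error weights and with the raw embryo channel, and 5 with the embryo channel alone.

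Some differences between days had another sign than on the ratio, where 2 of them were near 0. *hbae1* on TCDD day 5 against day 1 was 0.00 on the ratio, -0.51 with normexp and loess, -1.62 in the embryo channel and -1.65 in the raw embryo channel. On DMSO day 3 against day 2, *hbae1* was 0.14 on the ratio and -1.09 and -1.15 in those channels, where the saturated spots of day 2 make the values bounds, and *hbae3* was 0.00, -0.64 and -0.73. *hbbe2* in DMSO embryos was -0.41 on the ratio and 1.90, 2.35 and 2.55 on day 2 against day 1, and -0.38 and 1.85, 2.08 and 2.30 on day 5 against day 1 (normexp, embryo and raw embryo channel). On day 5 against day 1, *hbae3* in DMSO was 0.42 on the ratio (not called) and -0.47 in the raw embryo channel, and the dim *zgc:92880* in TCDD was 1.53 and -0.15. The cause was not tested. Of 2424 values of single probes under the alternatives, 61 gained and 41 lost a call, 15 had another sign with a call on either side, and 53 uncalled ones moved by more than the residual SD. The other 2254 kept their call and its direction, or were uncalled throughout and moved by less. Among the uncalled values, 215 had another sign.

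With the experiment as a replicate block, the paired fit called *hbbe1* on DMSO day 4 against day 3 (-0.85, adjusted p = 0.0163), no longer called *hbbe2* on TCDD day 2 against day 1 (1.12, adjusted p = 0.0543), and changed no other call of the ratio. The raw embryo channel moved the median of all probes by -0.16 on day 2, by 0.10 on day 4 and by -0.12 on day 5, so that its differences are relative to those shifts. Dim signal and saturation limit several values: *ba1*, *zgc:92880* and *hbaa1* lay near background, and *hbae1* was at the top of the range on day 2.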
